A study of Homo sapiens with 20 samples.

Results

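Amino acids enter and leave a cell through carrier proteins of the solute carrier (SLC) families, and 10 of their genes were followed here: SLC7A11, SLC7A5, SLC3A2, SLC1A5, SLC1A4, SLC1A3, SLC7A1, SLC7A2, SLC38A1 and SLC38A2. They are plasma membrane carriers of cystine, glutamine, glutamate, small and large neutral amino acids and cationic amino acids, and all 10 were found by symbol among the 60271 genes of the deposited tables. MDA-MB-468 is an epithelial triple negative breast cancer cell line, and epidermal growth factor (EGF) is the ligand used in the study to induce its epithelial-mesenchymal transition (EMT). Per the labels, cells were cultured for 24 h and serum-starved for 24 h before EGF was given. EGF at 50 ng/mL was present for the last 72, 48, 24 or 12 h before harvest, or not at all (control). RNA from 4 biological replicates of each of these 5 groups was sequenced as 20 libraries. The labels state a common seeding and a common harvest for all groups, with only the addition of EGF at different times. The 24 h without serum is stated for all groups together, not for each group. Whether the time without serum, before EGF or in total, differed between groups is not given in the sources used here. Such a difference could not be told apart from the time of EGF. Every library comes from a single cell line, and the control is the same 4 libraries in each comparison.

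These carriers work by different mechanisms. SLC38A1 (SNAT1) and SLC38A2 (SNAT2) bring in small neutral amino acids such as glutamine and alanine together with sodium. SLC3A2 (CD98, 4F2hc) is a heavy chain that carries no amino acid itself and takes a light chain to the membrane: SLC7A5 (LAT1), an exchanger of leucine and other large neutral amino acids, or SLC7A11 (xCT), which imports cystine in exchange for glutamate. SLC1A5 (ASCT2) and SLC1A4 (ASCT1) exchange neutral amino acids, SLC7A1 (CAT1) and SLC7A2 (CAT2) carry arginine and lysine, and SLC1A3 (GLAST, EAAT1) takes up glutamate and aspartate.

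The deposited counts summed to between 15611961 and 25856953 per library. Levels are given as CPM, the counts of a gene relative to the library total after TMM scaling, and an error after a level is the SD between 4 libraries. An adjusted p is from edgeR's quasi-likelihood test, adjusted by Benjamini-Hochberg over the 16522 genes that passed edgeR's filter on low counts, with 0.05 as the threshold. Changes are log2 fold changes, and their error is the standard error (SE) of the fit. Epithelial markers were found in every library, with EPCAM between 138 and 226 CPM and CDH1 between 83.0 and 186 CPM. EGFR was between 3357 and 12120 CPM, ESR1 between 1.91 and 6.53 CPM and ERBB2 between 7.79 and 24.6 CPM, while PGR had no count in any library. Among markers of cells that the culture should lack, PTPRC reached at most 0.304 CPM, PECAM1 5.17 CPM and COL1A1 14.8 CPM, and their part in the results was not tested. Positions of genes are those of GENCODE 29 on GRCh38. Mitochondrial genes held 7.69% to 16.9% of the counts, and their part was not tested either.

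Most of the carriers were higher after EGF, and the rises were largest for SLC38A2. After 12 h, 7 of the 9 carriers that passed the filter were higher and 0 lower than in the control, where 32.9% of all genes tested were higher and 36.5% lower. SLC7A11 and SLC1A3 did not pass the test at 12 h, and SLC7A2 was too low to be tested. After 24 h, 8 of 9 were higher (29.2% of all genes) and 1 was lower (29.6%). After 48 h, 5 were higher (24.0%) and 2 lower (21.8%), and after 72 h, 6 were higher (30.6%) and 2 lower (31.0%). The median log2 fold change of the 9 tested carriers was 0.70, 0.64, 0.39 and 0.42 at 12, 24, 48 and 72 h, beside -0.054, -0.0071, 0.0099 and -0.0090 over all genes tested. The 10 genes were chosen with earlier results of these data known, so these shares describe the carriers and are not a test of the group. The data are from bulk RNA, in which fewer cells that express a gene and less of its RNA per cell cannot be told apart.

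Compared directly, 2 carriers were higher at 24 h than at 12 h (27.9% of all genes) and 6 lower (25.9%). From 24 to 48 h, 0 were higher (25.9%) and 5 lower (24.3%). From 48 to 72 h, 2 were higher (17.9%) and 1 lower (17.9%), and between 12 and 72 h, 2 were higher (35.6%) and 7 lower (32.0%). The shares of all genes depend on the scaling. With library totals alone in place of TMM, 21.7% were higher and 50.1% lower at 12 h, and 22.2% and 38.9% at 24 h. Of all genes, 37.0% were then higher and 16.9% lower at 24 h than at 12 h, 36.0% and 14.1% at 48 h than at 24 h, 12.9% and 25.3% at 72 h than at 48 h, and 45.3% and 21.2% at 72 h than at 12 h. That scaling shifted the median of all genes by -0.28 (log2) at 12 h and by -0.14 at 24 h against the control, and by 0.14, 0.15 and 0.21 between 24 and 12 h, 48 and 24 h, and 72 and 12 h. SLC1A5 then had a log2 fold change of 0.15 (adjusted p = 0.186) at 12 h and 0.093 (adjusted p = 0.426) at 24 h, and the other carriers higher at those times kept their direction and call. Of the carriers, SLC7A11 and SLC1A4 (higher) and SLC1A3 (lower) still passed between 24 and 12 h. With upper quartile scaling, the shares of all genes were 26.1% higher and 44.2% lower at 12 h against the control (median shift -0.16). They were 35.8% and 18.4% between 24 and 12 h (0.12), and 42.0% and 24.7% between 72 and 12 h (0.14). With factors per gene, 19.1% were higher and 29.7% lower at 24 h than at 12 h (-0.12), and 24.0% and 36.8% at 72 h than at 12 h (-0.17). These factors are the counts divided by the normalized values that the authors deposited, and at 12 h against the control they shifted the median by 0.12.

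Several of these carriers are known targets of stress and growth regulators, so their RefSeq promoters were searched for 4 motifs. The windows run from 250 bases before to 50 bases after each annotated start (GRCh38.p14), and 16 windows of 8 carriers were given. Those of SLC7A11 and SLC7A2 were not analysed here. The motifs were TGATGNAAN, the composite element bound by ATF4 and C/EBP factors (CARE), TGANTCA of AP-1, the E-box CACGTG and TGACNNNGC, the antioxidant response element (ARE), on both strands. Positions are counted from the start site and give the first base of the match on the strand printed. The CARE letters were found in 6 of the 16 windows, beside 3.61% of 35116 windows of all genes, and AP-1 in 3 (7.71%). The E-box was found in 2 (7.26%) and the ARE in 5 (13.3%). The 16 windows are not independent, since several belong to the same gene, and they include those of SLC1A3, which was not called higher at any time. SLC38A2, the carrier with the largest rise, has a single window with no match to any of the 4. SLC7A1 has a CARE match at position +8 and an ARE match at -85. A window of SLC3A2 has a CARE match at +37 on the opposite strand, and at -37 a stretch that matches both AP-1 and ARE. SLC7A5 has an E-box at -130 and an ARE match at -2. These matches describe the letters in the windows, and no binding was measured. Of the 7 carriers higher at 12 h, 4 are shown as examples with 1 window each, namely the largest riser without a match and SLC7A1, SLC3A2 and SLC7A5, which have matches to different motifs. The matches are in capitals.
SLC38A2, chr12:46372724-46373023, minus strand: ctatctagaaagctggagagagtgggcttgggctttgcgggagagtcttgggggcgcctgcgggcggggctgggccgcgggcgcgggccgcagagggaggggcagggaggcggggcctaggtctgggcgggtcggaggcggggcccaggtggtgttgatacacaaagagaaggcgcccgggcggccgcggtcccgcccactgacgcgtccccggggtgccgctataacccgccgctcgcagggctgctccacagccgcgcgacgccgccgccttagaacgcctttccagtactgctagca
SLC7A1, chr13:29595639-29595938, minus strand: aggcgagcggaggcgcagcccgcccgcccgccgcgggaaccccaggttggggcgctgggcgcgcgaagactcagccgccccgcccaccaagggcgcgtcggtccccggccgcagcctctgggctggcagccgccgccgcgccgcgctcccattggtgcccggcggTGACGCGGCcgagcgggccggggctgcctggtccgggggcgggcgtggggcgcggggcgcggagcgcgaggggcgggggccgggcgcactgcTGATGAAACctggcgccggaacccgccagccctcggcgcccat
SLC3A2, chr11:62881449-62881748, plus strand: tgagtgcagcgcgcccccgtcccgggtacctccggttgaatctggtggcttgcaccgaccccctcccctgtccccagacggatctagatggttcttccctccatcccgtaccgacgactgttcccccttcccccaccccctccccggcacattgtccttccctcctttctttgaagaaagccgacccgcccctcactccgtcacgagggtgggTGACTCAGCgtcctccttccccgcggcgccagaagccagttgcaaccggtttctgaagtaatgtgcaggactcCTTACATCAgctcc
SLC7A5, chr16:87869458-87869757, minus strand: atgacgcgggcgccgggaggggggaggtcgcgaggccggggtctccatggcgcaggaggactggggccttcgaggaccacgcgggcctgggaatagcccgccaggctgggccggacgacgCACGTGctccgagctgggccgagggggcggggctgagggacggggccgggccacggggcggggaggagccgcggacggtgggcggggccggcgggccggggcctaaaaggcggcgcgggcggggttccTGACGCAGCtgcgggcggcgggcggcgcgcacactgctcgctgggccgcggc

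**Figure D1:**
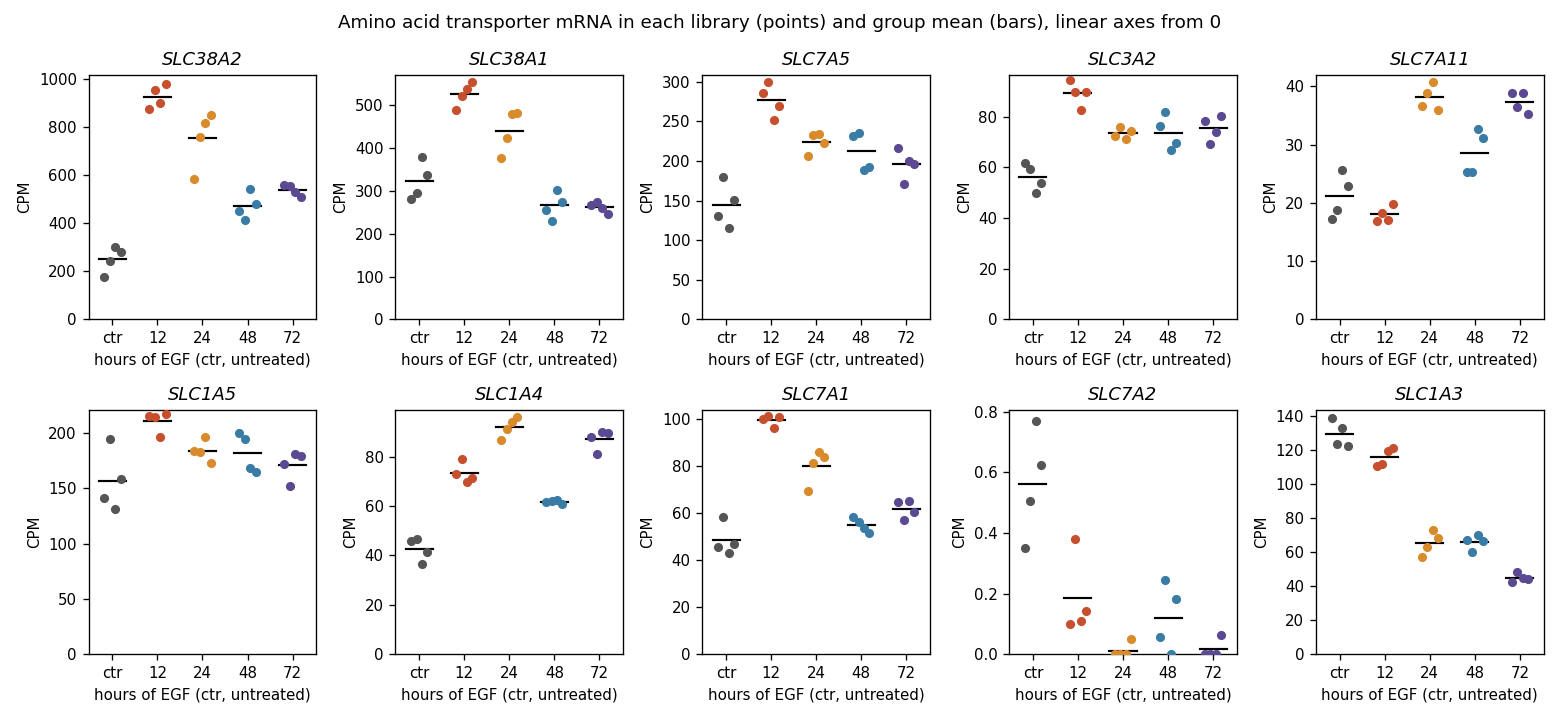
Each panel shows 1 carrier as CPM (linear axis from 0) in the 20 libraries, with a point for each library and a bar for the group mean, for untreated cells (ctr) and the 4 times of EGF. SLC38A2 is above all controls in all 16 EGF libraries, SLC7A11 rises above all controls at 24 and 72 h but not at 12 h, and SLC1A3 has a mean of 45.0 CPM at 72 h.

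SLC38A2 (ENSG00000134294, chr12:46358189-46372867, minus strand, 14 merged exons) showed the largest rise of the carriers at 12, 24, 48 and 72 h. Its levels in the control libraries were 177, 241, 302 and 280.0 CPM. They were 875, 953, 898 and 976 CPM at 12 h and 582, 757, 818 and 851 CPM at 24 h. At 48 h they were 449.9, 415, 539.7 and 479.8 CPM, and at 72 h 558, 552, 529 and 510.0 CPM. Every EGF library lay above every control library, and the lowest control library was replicate 1. Against the control, SLC38A2 was 3.70-fold higher at 12 h (1.89 ± 0.13 on the log2 scale, adjusted p = 2.48e-11) and 3.01-fold higher at 24 h (1.59 ± 0.13 on the log2 scale, adjusted p = 6.49e-10). The difference was smaller but still passed the test at 48 h (0.91 ± 0.13 on the log2 scale, adjusted p = 4.31e-06) and 72 h (1.10 ± 0.13 on the log2 scale, adjusted p = 1.42e-07). Between 24 and 48 h SLC38A2 fell by 0.67 on the log2 scale (SE 0.13, adjusted p = 0.000141). The smaller fall from 12 to 24 h, by 0.30 (adjusted p = 0.0488), was just past the threshold. It missed it with library totals (-0.16, adjusted p = 0.273) or upper quartile scaling (-0.19, adjusted p = 0.187). The same held with factors per gene (-0.28, adjusted p = 0.221), with no filter (-0.34, adjusted p = 0.0866) and with at least 10 counts in every library (-0.26, adjusted p = 0.0691). Leaving out any 1 of 13 libraries also took its p above the threshold, among them each of the 4 at 12 h and EGF 24 h replicate 1, without which it was -0.20 (adjusted p = 0.183).

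SLC38A1, its neighbor on the same chromosome (ENSG00000111371, chr12:46183063-46270017, minus strand, 22 merged exons), carries similar amino acids and had another course. In the control libraries it was at 280.4, 294, 378 and 337 CPM. It was at 488, 519.8, 537 and 554 CPM at 12 h, and at 375, 422, 479 and 482 CPM at 24 h. All libraries at 12 h, and 3 of 4 at 24 h, were above the highest control. At 48 h the values were 256, 230.1, 302 and 274 CPM, and at 72 h 267, 274, 259.7 and 246 CPM, with 3 of 4 libraries at 48 h and 4 of 4 at 72 h below the lowest control. SLC38A1 was higher at 12 h (0.70 ± 0.093 on the log2 scale, adjusted p = 4.47e-07) and at 24 h (0.45 ± 0.093 on the log2 scale, adjusted p = 0.000241). It was lower than in the control at 48 h (-0.28 ± 0.093 on the log2 scale, adjusted p = 0.0175) and 72 h (-0.30 ± 0.093 on the log2 scale, adjusted p = 0.00764). The later falls are the less certain ones. With factors per gene, the log2 fold change was -0.19 at 48 h (adjusted p = 0.217) and -0.020 at 72 h (adjusted p = 0.901). At 48 h SLC38A1 also lost the call without control replicate 3 (-0.19, adjusted p = 0.0869) or without EGF 48 h replicate 2 (-0.21, adjusted p = 0.0721), and in a fit of the 2 groups alone (-0.28, adjusted p = 0.0715). The drop between 24 and 48 h was larger (-0.73 ± 0.094 on the log2 scale, adjusted p = 9.91e-07), and all 4 libraries at 48 h lay below all 4 at 24 h. The drop from 12 to 24 h (-0.26, adjusted p = 0.0239) no longer passed with library totals (-0.12, adjusted p = 0.299), upper quartile scaling (-0.14, adjusted p = 0.154) or factors per gene (-0.27, adjusted p = 0.0671), or without EGF 12 h replicate 3 or 4 or EGF 24 h replicate 1 or 2 (-0.25 to -0.19).

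The balance between the SNAT mRNAs was therefore given for each library, as CPM per kilobase (kb) of merged exons, which allows levels to be compared between genes. The ratio of SLC38A2 to SLC38A1 was 0.959, 1.24, 1.21 and 1.26 in the control libraries. After EGF it was 2.72, 2.78, 2.54 and 2.67 at 12 h and 2.36, 2.72, 2.59 and 2.68 at 24 h. It was 2.67, 2.74, 2.71 and 2.65 at 48 h, and 3.17, 3.06, 3.09 and 3.15 at 72 h. All 16 EGF libraries were above the 4 control libraries, and the 4 libraries at 72 h were above all others. A single scaling factor for a library cancels in such a ratio, but factors per gene do not, and the ratio also rests on the exon lengths, which were merged over all annotated transcripts.

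The heavy chain SLC3A2 (ENSG00000168003, chr11:62856102-62888875, plus strand, 15 merged exons) was higher after EGF at 12, 24, 48 and 72 h. It was at 61.9, 59.5, 49.7 and 53.8 CPM in the control libraries and at 94.3, 89.8, 82.8 and 89.8 CPM after 12 h. Later it was at 72.3, 75.9, 71.1 and 74.1 CPM (24 h), 76.2, 82.0, 66.8 and 69.5 CPM (48 h) and 78.1, 69.3, 73.8 and 80.2 CPM (72 h). No EGF library overlapped the control range. The rise was 1.59-fold at 12 h (0.67 ± 0.076 on the log2 scale, adjusted p = 4.35e-08) and 1.31-fold at 24 h (0.38 ± 0.077 on the log2 scale, adjusted p = 0.000145). It was 1.31-fold at 48 h (adjusted p = 0.000206) and 1.34-fold at 72 h (adjusted p = 4.33e-05). With factors per gene, SLC3A2 did not pass the test at 24 h (0.18, adjusted p = 0.198) or 48 h (0.11, adjusted p = 0.465). SLC3A2 was lower at 24 h than at 12 h (-0.28 ± 0.076 on the log2 scale, adjusted p = 0.00331), a call that was lost with library totals (-0.14, adjusted p = 0.131) and with upper quartile scaling (-0.17, adjusted p = 0.0987). It was also lower at 72 h than at 12 h (-0.24 ± 0.076 on the log2 scale, adjusted p = 0.00708), but not with library totals (-0.035, adjusted p = 0.705), upper quartile scaling (-0.10, adjusted p = 0.281), factors per gene (-0.20, adjusted p = 0.119) or at least 10 counts in every library (-0.15, adjusted p = 0.0814).

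Its light chain SLC7A5 (ENSG00000103257, chr16:87830023-87869488, minus strand, 11 merged exons) was also higher at all 4 times. The control libraries had 130.0, 180.2, 115 and 151 CPM and those at 12 h 286, 299, 251 and 269 CPM. The values at 24 h were 206, 233, 234 and 222 CPM and at 48 h 231, 235, 189 and 193 CPM. At 72 h they were 217, 171, 199 and 196 CPM, where replicate 2 lay within the control range and all other EGF libraries above it. SLC7A5 was 1.92-fold higher at 12 h (0.94 ± 0.11 on the log2 scale, adjusted p = 4.48e-08), 1.55-fold at 24 h (adjusted p = 2.02e-05), 1.47-fold at 48 h (adjusted p = 0.000171) and 1.36-fold at 72 h (0.44 ± 0.11 on the log2 scale, adjusted p = 0.00102). It was lower at 72 h than at 12 h (-0.50 ± 0.11 on the log2 scale, adjusted p = 0.000269). The step from 12 to 24 h (-0.30, adjusted p = 0.0197) was lost without EGF 12 h replicate 2 (-0.26, adjusted p = 0.0623) or EGF 24 h replicate 1 (-0.27, adjusted p = 0.0637). It was also lost with library totals (-0.16, adjusted p = 0.204), upper quartile scaling (-0.19, adjusted p = 0.187) or factors per gene (-0.18, adjusted p = 0.338). The pseudogene copies SLC7A5P1 and SLC7A5P2, whose reads could be confused with those of SLC7A5, had 0 counts in every library. How reads that match several genes were counted is not given in the sources used here. These 0 counts therefore cannot tell whether such reads were counted for SLC7A5.

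The other light chain, SLC7A11 (ENSG00000151012, chr4:138164097-138242349, minus strand, 12 merged exons), did not follow this early rise. It was at 17.2, 18.8, 25.7 and 22.8 CPM in the control libraries and at 17.0, 18.2, 17.1 and 19.8 CPM at 12 h, and these ranges overlapped. It then reached 36.6, 38.9, 40.8 and 36.0 CPM at 24 h. The values were 25.2, 25.3, 32.6 and 31.1 CPM at 48 h and 38.8, 36.5, 38.8 and 35.3 CPM at 72 h. All libraries at 24 and 72 h were above the highest control, while at 48 h replicates 1 and 2 lay just below control replicate 3. SLC7A11 did not pass the test at 12 h (-0.23 ± 0.11 on the log2 scale, adjusted p = 0.0638). It was 1.80-fold higher than in the control at 24 h (0.85 ± 0.11 on the log2 scale, adjusted p = 2.78e-07), 1.35-fold at 48 h (0.44 ± 0.11 on the log2 scale, adjusted p = 0.0016) and 1.77-fold at 72 h (0.82 ± 0.11 on the log2 scale, adjusted p = 3.72e-07). Between 12 and 24 h it rose 2.11-fold (1.08 ± 0.11 on the log2 scale, adjusted p = 1.94e-08), with all 4 libraries at 24 h above all 4 at 12 h. It fell from 24 to 48 h (-0.41, adjusted p = 0.00213), which did not pass with factors per gene (-0.31, adjusted p = 0.0818), and rose again from 48 to 72 h (0.39, adjusted p = 0.00547). At 12 h SLC7A11 was called lower under some other settings, with -0.51 for library totals (adjusted p = 0.000223), -0.39 for upper quartile scaling (adjusted p = 0.00145) and -0.27 for a filter of 10 or more counts in each library (adjusted p = 0.0307). The same was found without control replicate 1 (-0.31, adjusted p = 0.0134), control replicate 2 (-0.28, adjusted p = 0.0298) or EGF 12 h replicate 4 (-0.27, adjusted p = 0.0474). Its antisense gene SLC7A11-AS1, which overlaps 8.97% of its exon bases, had at most 1 count in any library. Whether reads were counted by strand is not given in the sources used here.

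**Figure D2:**
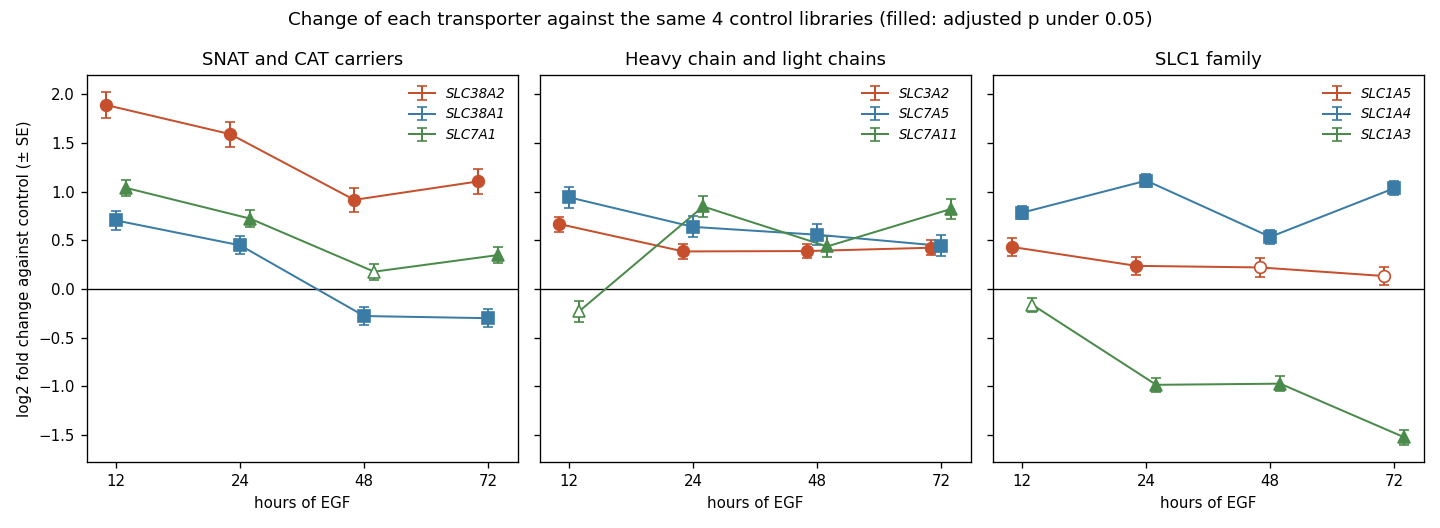
The plot gives the log2 fold change of 9 carriers against the same 4 control libraries (vertical axis, ± SE) at each time of EGF (horizontal axis), with filled symbols for an adjusted p under 0.05. SLC38A2, SLC7A1 and SLC7A5 are highest at 12 h, whereas SLC7A11 goes from -0.23 at 12 h to 0.85 at 24 h and SLC1A3 reaches -1.52 at 72 h.

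Since the light chains share a heavy chain, their levels were set against SLC3A2 within each library, again per kb of exons. The ratio of SLC7A11 to SLC3A2 was 0.149, 0.17, 0.278 and 0.228 in the control libraries and 0.0967, 0.109, 0.111 and 0.118 at 12 h. All 4 libraries at 12 h lay below all 16 others. The ratio was 0.272, 0.275, 0.308 and 0.261 at 24 h. It was 0.177, 0.166, 0.262 and 0.24 at 48 h and 0.267, 0.283, 0.282 and 0.236 at 72 h, and these groups overlapped the control. SLC7A5 exceeded SLC3A2 in every library, with a ratio of 2.29 to 3.31 in the control, 3.27 to 3.64 at 12 h, 3.11 to 3.60 at 24 h, 3.03 to 3.31 at 48 h and 2.67 to 3.03 at 72 h. At every time of EGF libraries lay within the control range, at 12 h replicate 4 (3.27) and at 24 h replicates 1 (3.11) and 4 (3.27). The ratio between the light chains, SLC7A5 to SLC7A11, was 27.6 to 34.3 at 12 h, and 9.11 to 19.5 in the control.

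**Figure D3:**
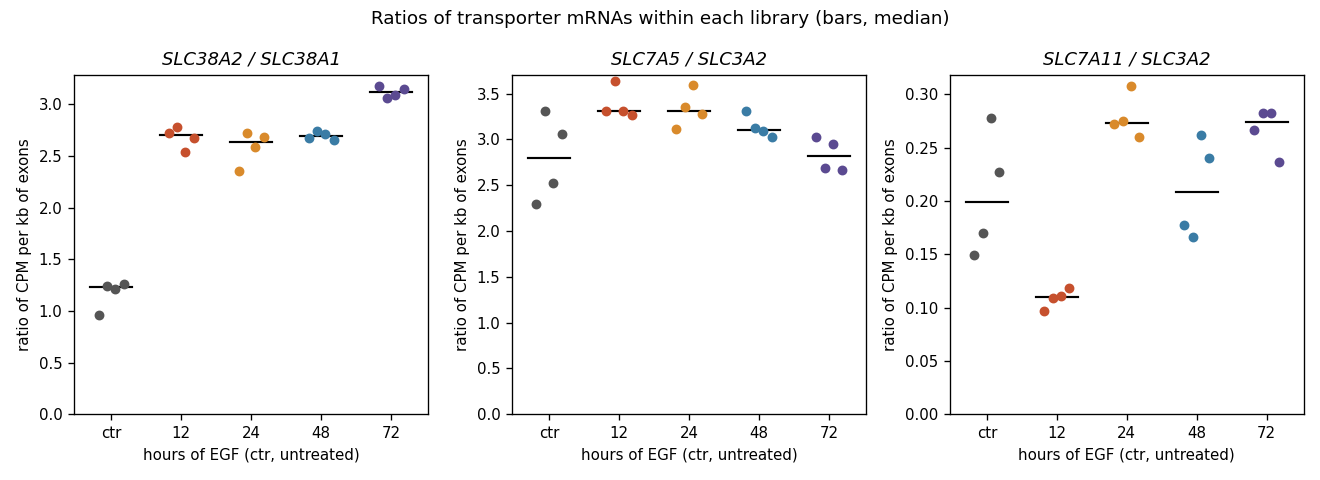
Points give the ratio of CPM per kb of exons in each library (linear axes from 0) and bars the group median, for SLC38A2 to SLC38A1, SLC7A5 to SLC3A2 and SLC7A11 to SLC3A2. The first ratio is 0.959 to 1.26 in the control and 2.36 to 3.17 after EGF, and the third is lowest at 12 h, with 0.0967 to 0.118.

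Of the neutral exchangers, SLC1A4 was higher at all 4 times and SLC1A5 at 12 and 24 h. SLC1A4 (ENSG00000115902, chr2:64988477-65023865, plus strand, 10 merged exons), which carries alanine, serine, cysteine and threonine, was at 45.7, 46.5, 36.6 and 41.6 CPM in the control libraries. At 12 h it was at 72.8, 79.1, 69.8 and 71.4 CPM, and at 24 h at 86.8, 91.2, 94.0 and 96.0 CPM. It was at 61.5, 61.8, 62.5 and 60.9 CPM at 48 h and at 88.0, 81.0, 90.1 and 89.7 CPM at 72 h. Every EGF library was above every control library, with the lowest EGF values at 48 h. SLC1A4 was 1.72-fold higher at 12 h (0.78 ± 0.070 on the log2 scale, adjusted p = 7.14e-10) and 2.16-fold at 24 h (1.11 ± 0.070 on the log2 scale, adjusted p = 2.3e-12). The rise was 1.45-fold at 48 h (0.53 ± 0.070 on the log2 scale, adjusted p = 1.21e-06) and 2.05-fold at 72 h (1.03 ± 0.070 on the log2 scale, adjusted p = 7.05e-12). The steps between times also passed the test. SLC1A4 was higher at 24 than at 12 h (0.33, adjusted p = 0.000354), lower at 48 than at 24 h (-0.58, adjusted p = 3.63e-07) and higher again at 72 than at 48 h (0.50, adjusted p = 4.92e-06). In each of these steps the 4 libraries of one time did not overlap the 4 of the other.

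SLC1A5 (ENSG00000105281, chr19:46774883-46788594, minus strand, 9 merged exons), the sodium-dependent carrier of glutamine, was at 141, 195, 131 and 158 CPM in the control, where replicate 2 was the highest. It was at 215, 214, 196 and 217 CPM at 12 h, all above the control range. It was at 184, 183, 197 and 173 CPM at 24 h. The levels were 200.3, 195, 168 and 165 CPM at 48 h, and 172, 152, 181 and 179.5 CPM at 72 h. At 24 h only replicate 3 exceeded the highest control, at 48 h only replicate 1, and at 72 h no library did. SLC1A5 was higher at 12 h (0.43 ± 0.095 on the log2 scale, adjusted p = 0.000316). The difference at 24 h (0.24 ± 0.095 on the log2 scale, adjusted p = 0.0359) did not pass in several other fits. It was 0.15 with factors per gene (adjusted p = 0.247), 0.19 with upper quartile scaling (adjusted p = 0.13), and 0.24 with the 2 groups alone (adjusted p = 0.0818). It also did not pass without EGF 24 h replicate 1, 2 or 3, or without control replicate 1, 3 or 4 (0.16 to 0.24, adjusted p = 0.0532 to 0.138). At 48 h (0.22, adjusted p = 0.061) and 72 h (0.13, adjusted p = 0.235) SLC1A5 did not pass. Without control replicate 2 it did, at 48 h with 0.34 (adjusted p = 0.00119) and at 72 h with 0.26 (adjusted p = 0.00883). At 48 h it also passed without EGF 48 h replicate 3 (0.26, adjusted p = 0.0426) or 4 (0.27, adjusted p = 0.0376), and with at least 10 counts in every library (0.26, adjusted p = 0.0311). SLC1A5 was lower at 72 h than at 12 h (-0.30 ± 0.095 on the log2 scale, adjusted p = 0.00799), a call that was lost with library totals (-0.090, adjusted p = 0.429), upper quartile scaling (-0.16, adjusted p = 0.185) and at least 10 counts in every library (-0.21, adjusted p = 0.0605). Between 12 and 24 h it did not pass (-0.19, adjusted p = 0.0883) but was called lower with factors per gene (-0.27, adjusted p = 0.0368), with no filter (-0.23, adjusted p = 0.0471), with the 2 groups alone (-0.18, adjusted p = 0.00669) and without control replicate 2 (-0.20, adjusted p = 0.0298).

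For the cationic carriers, SLC7A1 rose and SLC7A2 was close to the detection limit. SLC7A1 (ENSG00000139514, chr13:29509410-29595688, minus strand, 14 merged exons) was at 45.4, 58.4, 43.0 and 47.0 CPM in the control libraries. It was at 99.97, 101, 95.9 and 101 CPM at 12 h and at 69.4, 81.0, 85.8 and 83.6 CPM at 24 h, all above the control range. At 48 h it was at 58.1, 56.1, 53.7 and 51.3 CPM, with no library above the highest control. At 72 h it was at 64.4, 56.9, 64.8 and 60.4 CPM, with 3 of 4 libraries above it. SLC7A1 was 2.05-fold higher at 12 h (1.04 ± 0.084 on the log2 scale, adjusted p = 1.13e-10), 1.65-fold at 24 h (0.72 ± 0.084 on the log2 scale, adjusted p = 9.28e-08) and 1.27-fold at 72 h (0.35 ± 0.084 on the log2 scale, adjusted p = 0.000978). It did not pass at 48 h (0.18 ± 0.084 on the log2 scale, adjusted p = 0.0885), where it did pass without control replicate 2 (0.28, adjusted p = 0.0035) and with at least 10 counts in every library (0.22, adjusted p = 0.0389). SLC7A1 fell between 24 and 48 h (-0.54, adjusted p = 9.97e-06). The fall between 12 and 24 h (-0.31, adjusted p = 0.00263) was lost with library totals (-0.17, adjusted p = 0.0849) and upper quartile scaling (-0.20, adjusted p = 0.057).

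SLC7A2 (ENSG00000003989, chromosome 8, 15 merged exons), the carrier that supplies arginine in macrophages and liver, did not pass the filter on low counts and was not part of the main test. The control libraries held 7, 12, 18 and 13 counts, and those at 12 h 2, 7, 2 and 3 counts. There were 0, 0, 0 and 1 counts at 24 h, 1, 5, 0 and 4 counts at 48 h and 0, 0, 0 and 1 counts at 72 h. No EGF library reached the control range except replicate 2 at 12 h, which lay within it in CPM. Over the summed counts of a group, the ratio to the control was 0.319 at 12 h (exact 95% interval 0.163 to 0.586), 0.0238 at 24 h (0.00059 to 0.139), 0.202 at 48 h (0.0915 to 0.404) and 0.0228 at 72 h (0.000566 to 0.133). These intervals cover counting error only. With no filter on low counts, SLC7A2 was called lower at 12 h (adjusted p = 0.0337), 24 h (adjusted p = 7.47e-06), 48 h (adjusted p = 0.00536) and 72 h (adjusted p = 5.93e-06).

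SLC1A3 (ENSG00000079215, chr5:36606355-36688334, plus strand, 16 merged exons), the glutamate and aspartate carrier, was the carrier with the largest fall among those tested. It was at 139, 123, 133 and 122 CPM in the control libraries and at 110.2, 112, 119 and 121 CPM at 12 h, just below them. It was at 57.3, 62.8, 73.2 and 68.1 CPM at 24 h and 67.2, 59.9, 69.7 and 66.6 CPM at 48 h. At 72 h it was at 42.2, 48.4, 45.0 and 44.3 CPM. All 16 EGF libraries lay below the lowest control. SLC1A3 did not pass the test at 12 h (-0.16 ± 0.073 on the log2 scale, adjusted p = 0.0522). It was 1.98-fold lower at 24 h (-0.98 ± 0.074 on the log2 scale, adjusted p = 5.63e-11), 1.96-fold lower at 48 h (-0.97 ± 0.074 on the log2 scale, adjusted p = 1.37e-10) and 2.87-fold lower at 72 h (-1.52 ± 0.076 on the log2 scale, adjusted p = 1.92e-14). The 12 h difference was past the threshold with library totals (-0.45, adjusted p = 1.24e-05), upper quartile scaling (-0.32, adjusted p = 0.000133) and at least 10 counts in every library (-0.20, adjusted p = 0.0149), and without 1 of 5 libraries: control replicate 2 or 4, EGF 24 h replicate 1 or 3, or EGF 48 h replicate 2 (-0.18 to -0.16, adjusted p = 0.0405 to 0.0474). Most of the fall came between 12 and 24 h (-0.82 ± 0.074 on the log2 scale, adjusted p = 4.35e-09) and between 48 and 72 h (-0.55 ± 0.075 on the log2 scale, adjusted p = 4.05e-06). The libraries at 24 and 48 h overlapped (0.012 ± 0.074 on the log2 scale, adjusted p = 0.911), but with factors per gene SLC1A3 was higher at 48 h by 0.47 (adjusted p = 0.0133).

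Per kb of exons, the order of the carriers differed between the control and EGF. In the control, SLC1A5 (46.9 ± 8.44 CPM per kb), SLC38A2 (37.9 ± 8.27), SLC38A1 (32.2 ± 4.42) and SLC7A5 (30.4 ± 5.95) came first, and each overlapped the next over its 4 libraries. They were followed by SLC1A3 (20.6 ± 1.26), SLC3A2 (10.9 ± 1.06), SLC7A1 (6.30 ± 0.89) and SLC1A4 (6.14 ± 0.65), of which the last 2 overlapped, and by SLC7A11 (2.19 ± 0.40). At 12 h SLC38A2 stood apart, at 140.2 ± 7.12 CPM per kb, and was followed by SLC1A5 (63.2 ± 2.91), SLC7A5 (58.3 ± 4.41) and SLC38A1 (52.4 ± 2.81), of which neighbors overlapped. SLC38A2 was also above all other carriers in every library at 24, 48 and 72 h. At 72 h it was at 81.4 ± 3.33 CPM per kb, SLC1A5 at 51.4 ± 3.99, SLC7A5 at 41.2 ± 4.03 and SLC38A1 at 26.1 ± 1.19. By then SLC1A3 (7.18 ± 0.41) lay below SLC3A2 (14.6 ± 0.94) and SLC1A4 (12.6 ± 0.61), and it overlapped SLC7A1 (8.01 ± 0.48). SLC7A11 (3.87 ± 0.18) remained below all of these, and SLC7A2 had the lowest mean in every group, with 0.0711 CPM per kb in the control.

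**Figure D4:**
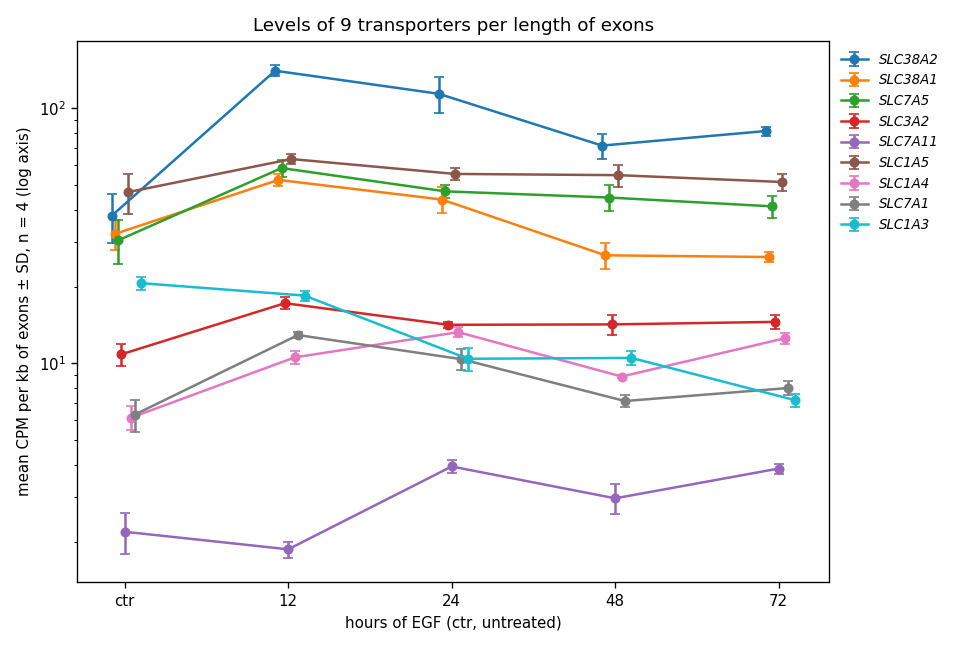
Points and error bars give the mean CPM per kb of exons ± SD over 4 libraries for 9 carriers (log axis), for untreated cells (ctr) and the 4 times of EGF. SLC38A2 goes from 37.9 CPM per kb in the control to 140.2 at 12 h, and SLC1A3, above SLC3A2 in the control, lies below it from 24 h on.

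Among 41 other amino acid transporters of the plasma membrane and the lysosome, 25 passed the filter. Of these, 7 were higher (32.9% of all genes) and 9 lower (36.5%) at 12 h, and 9 (29.2%) and 10 (29.6%) at 24 h. At 48 h, 7 (24.0%) were higher and 5 (21.8%) lower, and at 72 h 8 (30.6%) and 9 (31.0%). The median log2 fold change was -0.069, 0.089, -0.14 and -0.087 at the 4 times. Named below are up to 4 genes of each list, those with the largest change that are reported here. SLC1A2 (EAAT2), a glutamate carrier like SLC1A3, had 0.914 ± 0.23 CPM at 12 h against 17.8 ± 2.58 CPM without EGF (-4.26 ± 0.20 on the log2 scale, adjusted p = 6.06e-15), and was still lower at 72 h (-2.37). SLC43A2 (LAT4), a carrier of large neutral amino acids, had 1.31 ± 0.097 CPM at 12 h against 14.5 ± 1.40 CPM without EGF (-3.46 ± 0.19 on the log2 scale, adjusted p = 7.84e-14), and its log2 fold change was -1.32 at 48 h and -3.21 at 72 h. SLC6A14, a sodium- and chloride-coupled carrier of neutral and cationic amino acids, had 182 ± 7.27 CPM at 12 h against 30.3 ± 3.49 CPM without EGF (2.58 ± 0.20 on the log2 scale, adjusted p = 2.43e-09). It did not pass at 48 h (0.27, adjusted p = 0.295) and was higher at 72 h (1.94). SLC6A6, the taurine carrier, had 33.4 ± 1.02 CPM at 12 h against 8.99 ± 0.37 CPM without EGF (1.89 ± 0.075 on the log2 scale, adjusted p = 2.82e-16) and was higher at 24, 48 and 72 h as well. As with SLC1A4, the value at 48 h (0.85) was the lowest of the 4 times.

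The genes that use what the carriers bring in were described in the same way. Of 10 genes for the use of cystine and cysteine for glutathione, 9 were tested. At 12 h, 2 were higher (32.9% of all genes) and 5 lower (36.5%), and at 24 h 3 (29.2%) and 4 (29.6%). At 48 h, 3 (24.0%) were higher and 2 (21.8%) lower, and at 72 h 3 (30.6%) and 4 (31.0%). The median log2 fold change was -0.22, -0.12, 0.17 and -0.0039 at the 4 times. CTH, which makes cysteine from cystathionine inside the cell, had 51.0 ± 0.17 CPM at 72 h against 10.4 ± 1.03 CPM without EGF (2.29 ± 0.085 on the log2 scale, adjusted p = 7.68e-17), and like SLC7A11 it had a smaller log2 fold change at 12 h (0.67) than at 24 h (1.94). CHAC1, which degrades glutathione, had 12.5 ± 1.19 CPM at 12 h against 3.35 ± 0.72 CPM without EGF (1.89 ± 0.15 on the log2 scale, adjusted p = 1.02e-10). GSR, which returns oxidized glutathione to its reduced form, had 39.0 ± 2.12 CPM at 72 h against 92.1 ± 2.06 CPM without EGF (-1.24 ± 0.057 on the log2 scale, adjusted p = 4.73e-15), and GPX4, which uses glutathione against lipid peroxides, had 36.5 ± 3.03 CPM at 24 h against 81.5 ± 7.80 CPM without EGF (-1.16 ± 0.086 on the log2 scale, adjusted p = 4.03e-11). Both were lower at 12, 24, 48 and 72 h.

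Of 12 genes for the use of glutamine, glutamate and asparagine, 11 were tested. At 12 h, 7 were higher (32.9% of all genes) and 3 lower (36.5%), and at 24 h 8 (29.2%) and 1 (29.6%). At 48 h, 5 (24.0%) were higher and 0 (21.8%) lower, and at 72 h 3 (30.6%) and 1 (31.0%). The median log2 fold change was 0.46, 0.51, 0.11 and 0.089 at 12, 24, 48 and 72 h. GLS2, a glutaminase that turns glutamine into glutamate, had 2.71 ± 0.31 CPM at 12 h against 4.51 ± 0.44 CPM without EGF (-0.74 ± 0.14 on the log2 scale, adjusted p = 7.18e-05) and did not pass at 24, 48 or 72 h. PPAT and CAD, which use glutamine in the first steps of purine and pyrimidine synthesis, were higher at 12 h (0.78 and 0.74) and 24 h (0.30 and 0.51), and did not pass at 48 or 72 h.

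Of 10 genes for the use of arginine, 9 were tested. At 12 h, 7 were higher (32.9% of all genes) and 1 lower (36.5%), and at 24 h 4 (29.2%) and 2 (29.6%). At 48 h, 1 (24.0%) was higher and 1 (21.8%) lower, and at 72 h 2 (30.6%) and 1 (31.0%). The median log2 fold change was 0.46, 0.14, 0.047 and -0.0086 at the 4 times. ARG2, the mitochondrial arginase, had 52.2 ± 1.66 CPM at 72 h against 14.6 ± 0.59 CPM without EGF (1.84 ± 0.080 on the log2 scale, adjusted p = 1.46e-15). ODC1, which makes putrescine from ornithine, had 19.9 ± 1.92 CPM at 72 h against 53.3 ± 1.63 CPM without EGF (-1.43 ± 0.072 on the log2 scale, adjusted p = 2.82e-14), after a small rise at 12 h (0.21, adjusted p = 0.00894). The polyamine synthesis genes SRM and AMD1 were higher at 12 h, with 99.0 ± 5.75 CPM at 12 h against 43.3 ± 7.52 CPM without EGF for SRM (1.19 ± 0.096 on the log2 scale, adjusted p = 9.81e-11) and 431 ± 22.7 CPM at 12 h against 223 ± 40.2 CPM without EGF for AMD1 (0.95 ± 0.12 on the log2 scale, adjusted p = 2.19e-07). Neither passed at 48 or 72 h. SLC7A1 did not pass at 48 h (0.18, adjusted p = 0.0885) but did at 72 h (0.35, adjusted p = 0.000978).

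All 24 genes for the sensing of amino acids by mTORC1, the kinase complex that couples amino acid supply to growth, were tested. At 12 h, 4 were higher (32.9% of all genes) and 14 lower (36.5%), and at 24 h 3 (29.2%) and 10 (29.6%). At 48 h, 4 (24.0%) were higher and 4 (21.8%) lower, and at 72 h 7 (30.6%) and 9 (31.0%). The median log2 fold change was -0.33, -0.14, 0.059 and 0.027 at the 4 times. SESN2, which binds leucine and restrains mTORC1 when leucine is low, had 14.4 ± 1.02 CPM at 72 h against 5.80 ± 0.87 CPM without EGF (1.31 ± 0.11 on the log2 scale, adjusted p = 2.58e-10) and was higher at 12, 24, 48 and 72 h. SESN3, of the same family, had 46.3 ± 6.98 CPM at 48 h against 85.1 ± 14.8 CPM without EGF (-0.88 ± 0.10 on the log2 scale, adjusted p = 2.3e-07). RRAGB, a Rag GTPase that recruits mTORC1 to the lysosome, had 3.65 ± 0.88 CPM at 12 h against 10.4 ± 1.57 CPM without EGF (-1.51 ± 0.17 on the log2 scale, adjusted p = 3.83e-08). SAR1B, a small GTPase that also senses leucine, had 76.1 ± 2.89 CPM at 12 h against 146 ± 15.1 CPM without EGF (-0.94 ± 0.088 on the log2 scale, adjusted p = 1.42e-09) and did not pass at 48 or 72 h.

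**Figure D5:**
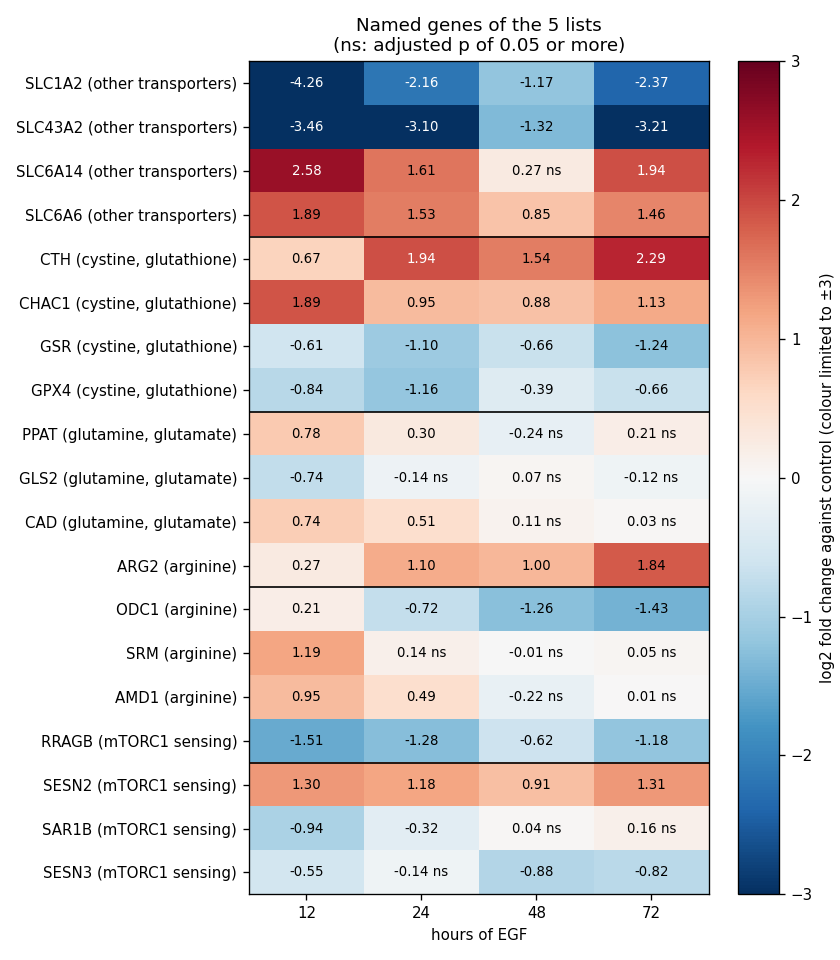
Each cell gives the log2 fold change against control at each time of EGF for the genes named from each of 5 lists, coloured from blue (lower) to red (higher), with ns for an adjusted p of 0.05 or more. SLC1A2 and SLC43A2 are lowest at 12 h (-4.26 and -3.46), and CTH is highest at 72 h (2.29).

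Across the 20 libraries, the carriers fell into different patterns. As log2 CPM, SLC7A5 and SLC1A5 had the highest correlation among the carriers (Pearson r = 0.924), followed by SLC7A5 and SLC3A2 (r = 0.913) and SLC38A2 and SLC7A1 (r = 0.883). Over all 20 libraries, SLC7A11 had an r of -0.0902 with its heavy chain SLC3A2, although both were called higher than in the control at 24, 48 and 72 h. SLC7A11 ran against SLC1A3 (r = -0.845). These values describe 20 libraries that fall into 5 groups and share their scaling. Among 10787 genes with a mean of at least 5 CPM, the genes most like SLC38A2 were TAB3 (r = 0.994) and KLF5 (r = 0.981), and those most like SLC38A1 were SEPTIN11 (r = 0.992) and MBNL1 (r = 0.978). SLC7A1 was most like LRP8 (r = 0.985) and ACTN1 (r = 0.984), SLC7A5 most like ITPR3 (r = 0.974), and SLC3A2 most like BMP1 (r = 0.969) and VAT1 (r = 0.961). SLC7A11 was most like PTER (r = 0.96) and TTC39B (r = 0.954), SLC1A4 most like SH3TC2 (r = 0.979) and SMOC1 (r = 0.975), SLC1A5 most like ADGRL1 (r = 0.96) and EEF2 (r = 0.942), and SLC1A3 most like CRISP3 (r = 0.975) and TRA2A (r = 0.972).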

How the data were processed

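Poly(A) RNA libraries were made with the Lexogen Corall mRNA kit. The authors deposited, for 60271 genes, whole-number counts for each library, which may be rounded estimates, and DESeq2-normalized values (treated as a score). The build is hg38 per the labels, and the aligner and annotation are not given in the sources used here. Fold changes and p-values from the authors' own comparisons were not used. The 10 deposited tables held identical counts. Counts were analyzed in edgeR 4.0.16 (R 4.3.3) with TMM scaling and filterByExpr, in 1 model with a mean for each group. P-values measure the spread between the 4 libraries of a group, which the labels call biological replicates, of 1 line. With the common seeding and harvest that the labels state, they may not cover the spread between separate experiments. The procedure was tested on simulated data. Alternatives were other scalings, filters and groups of libraries, a replicate block, glmTreat, a prior count of 2 in place of 0.125, DESeq2 1.42.0 and leaving out each library. Factors per gene are counts divided by normalized values. Exons are from GENCODE 29. The members and lists were chosen with earlier results of these data known. Named from each list are up to 4 genes with the largest change among those called against the control with a mean of at least 1 CPM, and for each tested carrier up to 2 genes most like it over the libraries. Some genes that this rule names are not reported here.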

Additional observations from a re-analysis of the deposited data

Results flagged for a closer look

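A single library stood apart from the rest of its group among 45 groups of 4 libraries that were examined, 5 for each of 9 carriers. At 12 h of EGF, replicate 3 had 196 CPM of SLC1A5, while the others had 214 to 217 CPM. Chance flags about 1 in 20 such groups.

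The change against the control differed between times of EGF for 5 carriers. Each difference below passed the direct test against no change, and its estimate was over 1.5-fold. SLC7A11 was higher at 24 than at 12 h (log2 fold change 1.08) and at 72 than at 12 h (1.05). SLC1A3 was lower at 24 than at 12 h (-0.82) and at 72 than at 12 h (-1.36). SLC38A1 was lower at 48 than at 24 h (-0.73) and at 72 than at 12 h (-1.003). SLC38A2 was lower at 48 than at 24 h (-0.67) and at 72 than at 12 h (-0.78). SLC7A1 was lower at 72 than at 12 h (-0.69). Tested against a 1.5-fold change, the differences of SLC7A11 and SLC1A3 and that of SLC38A1 between 72 and 12 h still passed. Those of SLC38A1 between 48 and 24 h (adjusted p = 0.148), SLC38A2 between 48 and 24 h (adjusted p = 0.459) and between 72 and 12 h (adjusted p = 0.0623) and SLC7A1 (adjusted p = 0.112) did not, by edgeR's glmTreat.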

How the results depend on the processing

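The number of carriers called fell most when each gene was tested against a 1.5-fold change, to 4, 4, 2 and 4 at 12, 24, 48 and 72 h against the control, and to 2, 0, 0 and 3 between 24 and 12 h, 48 and 24 h, 72 and 48 h, and 72 and 12 h. Of all genes, that test called 15.2% higher and 19.6% lower at 12 h, 11.2% and 9.81% at 24 h, 9.12% and 2.48% at 48 h, and 14.6% and 8.97% at 72 h. Between times, in the same order, it called 9.38% and 3.93%, 7.78% and 3.23%, 3.5% and 1.85%, and 19.3% and 8.93%. In the 5 lists, in the order described above, that test left 10, 7, 7 and 7 genes, then 2, 4, 1 and 3, then 4, 1, 0 and 1, for arginine 3 and 2 at 12 and 24 h, and for mTORC1 5, 2, 2 and 6. With factors per gene, 10, 12, 7 and 9 other transporters were called at the 4 times, 3 glutamine genes at 48 h and 5 arginine genes at 72 h. Of all genes, that setting called 36.1% higher and 29.2% lower at 12 h, and 26.9% and 26.1% at 24 h. It called 16.3% and 19.9% at 48 h, and 25.7% and 29.2% at 72 h. The glutamine genes were also 3 at 48 h with the 2 groups alone, without EGF 48 h replicate 4 and without control replicate 4, and with upper quartile scaling 5 arginine genes were called at 12 h. Of all genes, the fit of the 2 groups alone called 19.1% higher and 16.8% lower at 48 h. Upper quartile scaling called 26.1% and 44.2% at 12 h. Between 24 and 12 h, scaling by library totals or by upper quartiles left 3 of 8 carriers, and the cause was not tested. Of all genes, library totals then called 37.0% higher and 16.9% lower, and upper quartiles 35.8% and 18.4%. These scalings shifted the median of all genes by 0.14 and 0.12 (log2). With 1 library left out, 7 to 9, 8 to 10, 6 to 9 and 8 to 9 carriers were called at 12, 24, 48 and 72 h, and 6 to 9, 5 to 6, 3 to 4 and 9 to 10 in the comparisons between times. Of 16780 to 16863 genes tested, 5235 to 5543 were then higher and 5818 to 6152 lower at 12 h. At 24 h these were 4566 to 4974 and 4518 to 4993, and at 48 h 3699 to 4271 and 3195 to 3817. At 72 h they were 4819 to 5208 and 4685 to 5221. Between times, in the same order, 4206 to 4799 were higher and 3938 to 4474 lower, then 3875 to 4452 and 3565 to 4260. The last 2 were 2564 to 3147 and 2348 to 3159, and 5595 to 6048 and 5049 to 5471. SLC7A2 passed the filter on low counts, and so was among the 10 carriers tested, when any EGF library or control replicate 1 was left out. It did so only through control replicates 2, 3 and 4 (12, 18 and 13 counts), since no EGF library held more than 7 counts. A gene admitted only through the group where it is higher tends to be called lower in the others. The upper ends of these ranges can include SLC7A2, whose calls there are no support. The replicate numbers did not pair the libraries in general, since 5 of 40 pairs of same-numbered libraries deviated together with a correlation over 0.1 (median 0.00922). The highest correlations were between the control and EGF 48 h, at 0.328 for replicate 2 and 0.348 for replicate 3. For replicates 1 and 4 of these groups they were 0.000142 and 0.0272. With a replicate block, 9, 9, 7 and 8 carriers were called, and 8, 5, 3 and 9 between times. Of all genes, the block called 33.4% higher and 36.7% lower at 12 h, and 29.8% and 29.9% at 24 h. It called 24.7% and 22.7% at 48 h, and 31.3% and 31.1% at 72 h. Between times, in the same order, it called 28.4% and 26.6%, 26.4% and 25.4%, 18.9% and 18.5%, and 35.9% and 32.5%. SLC7A11 (-0.22) and SLC1A3 (-0.16) were then lower at 12 h, while no other call changed. The direction turned for 7 differences, none of which had passed the test. Between 48 and 24 h, SLC7A5 was at 0.074 with library totals. SLC3A2 was at -0.00093 with DESeq2 size factors, -0.0014 with DESeq2 and -0.064 with factors per gene, and at -0.053 to 0.047 without 1 library. SLC1A5 was at 0.14 with library totals, 0.051 with upper quartiles, 0.0023 with factors per gene and 0.019 with at least 10 counts, and at -0.066 to 0.026 without 1 library, and SLC1A3 at -0.049 to 0.066. Between 72 and 48 h, SLC3A2 was at -0.053 with library totals, -0.0095 with upper quartiles and -0.011 to 0.090 without 1 library, and SLC38A1 at 0.17 with factors per gene and -0.085 to 0.046 without 1 library. At 72 h against the control, SLC1A5 was at -0.034 with factors per gene. With 4 libraries a group, the smallest change called against the control was 0.24 (SLC1A5 at 24 h) and the largest not called -0.23 (SLC7A11 at 12 h).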
